A study of Mus musculus with 20 samples.

Results

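Apc encodes a large scaffold protein that in most tissues holds β-catenin in the destruction complex of the Wnt pathway and in neurons also binds the growing ends of microtubules. N6-methyladenosine (m6A) is a methyl mark that a nuclear methyltransferase complex places on adenosines of messenger RNA, mostly in long exons and around stop codons, and reader proteins with a YTH domain bind it. In mammals the last exon of Apc is very long and holds most of the coding sequence. The transcript was examined here through all listed sites that carry the symbol Apc, which were 98 of the 25978 sites in 3 brain regions. The gene (NCBI gene 11789) spans 34220297 to 34322190 on chromosome 18 of GRCm38.p6, the assembly of mm10, and all of its sites lay on the plus strand.

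The sites came from bulk poly(A) RNA-seq of mice with a tamoxifen-inducible transgene. APOBEC1-YTH joins a cytidine deaminase to an m6A-binding domain, so that cytidines beside m6A are read as uridines. APOBEC1-YTHmut served as the background for such edits. Cortex, hippocampus and cerebellum each had 4 APOBEC1-YTH libraries, from the same 4 animal numbers, and 3, 2 and 3 APOBEC1-YTHmut libraries in that order. All mice, both transgenes included, were given 20 mg/kg tamoxifen every 24 h over 5 days, with tissue taken 7 days after the last dose; the sources used here give neither age nor the promoter of the transgene nor the cells that express it. The authors deposited 1 list of sites per region with 1 value per site, called the editing level here and read as the percent of edited reads. The lists hold no read depth, no value per animal and no APOBEC1-YTHmut value, so no difference below has a replicate error, and none was tested. Apc was singled out because its number of sites differed between these same lists, so every number and level below is a description.

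The labelled regions were checked with marker genes, counted as genes with at least 1 listed site; over all 3731 listed genes, 84.8% had one in cortex, 68.3% in hippocampus and 59.7% in cerebellum. The marker sets held 10 genes for cortex, 10 for hippocampus, 14 for cerebellum, 10 for astrocytes, 12 for oligodendrocytes and 10 for microglia and vessels. Markers without a site in any region are left out of the counts that follow. Of 8 cortex markers with any site, 8 had one in cortex, 4 in hippocampus and 1 in cerebellum. Of 6 hippocampus markers, 2, 6 and 1 did in the same order, and of 8 cerebellum markers 4, 3 and 8 did. The 8 astrocyte and 6 oligodendrocyte markers with any site were listed in every region, and of 2 listed microglia and vessel markers 2, 1 and 1 were. The markers show sites and not RNA levels. Gene expression was not measured here, and its part in the differences between regions was not tested. In bulk tissue, fewer cells that use a transcript and less of it per cell cannot be told apart either.

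The lists gave Apc 98 cortical, 26 hippocampal and 4 cerebellar sites. These were 0.548% of the cortical list (0.445 to 0.668%, exact binomial 95% interval), 0.193% of the hippocampal list (0.126 to 0.283%) and 0.0351% of the cerebellar list (0.00957 to 0.0899%). The intervals treat sites as independent and cover counting error only. Apc ranked 1 of 3163 genes by number of sites in cortex, 73 of 2547 in hippocampus, where 9 genes had 26 sites, and tied for 668 of 2228 in cerebellum. On the log2 scale with a pseudocount of 1, the number was 1.87 higher in cortex than in hippocampus, 4.31 higher in cortex than in cerebellum and 2.43 higher in hippocampus than in cerebellum. Among genes with 10 or more listings in the pair, 15.5% had at least 2-fold more sites in cortex than in hippocampus, 37.4% in cortex than in cerebellum and 26.2% in hippocampus than in cerebellum. By these ratios Apc ranked 29 of 876, 31 of 855 and 80 of 724 genes. Many genes thus shared the direction, and since Apc was chosen on this contrast nothing further is read from its rank.

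**Figure D1:**
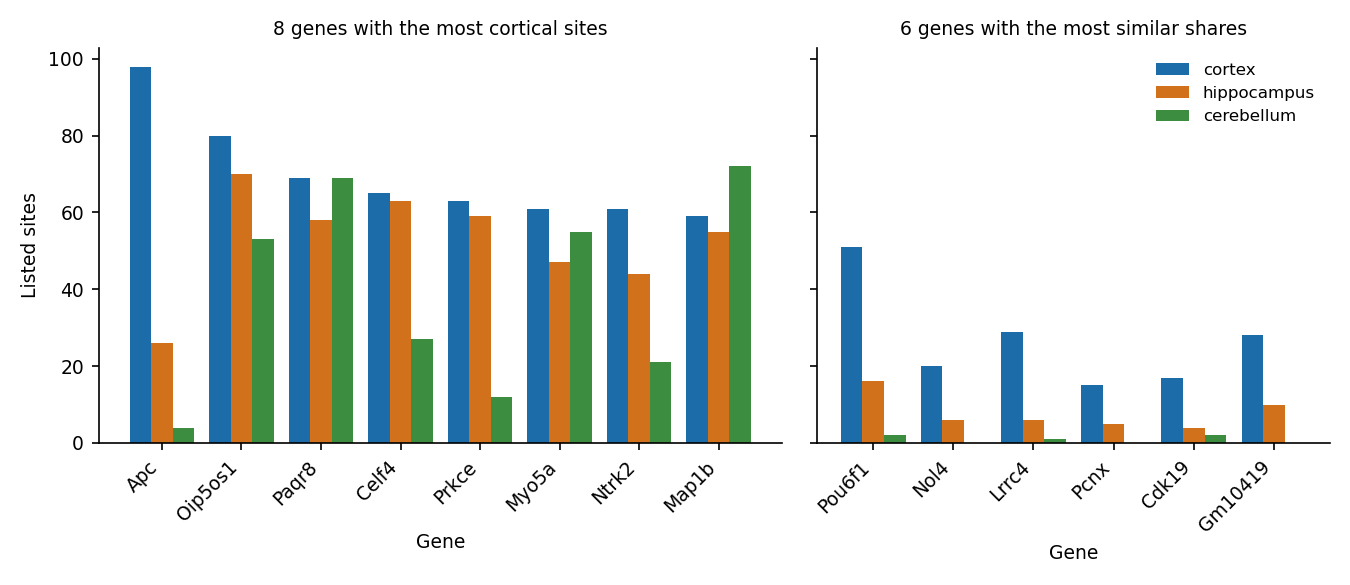
Number of listed sites (y axis) per gene (x axis) in cortex (blue), hippocampus (orange) and cerebellum (green), for the 8 genes with the most cortical sites on the left and the 6 genes whose shares of listings were nearest to those of Apc on the right. Apc has 98, 26 and 4 sites, while Paqr8 has 69, 58 and 69.

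The sites were strung along the 3′ part of the gene. Of the 98 positions, 97 lay within 10167 nt of the annotated 3′ end, and the remaining one, at 34269091 with 3.12% in cortex only, lay 53099 nt upstream of it. The distances are genomic, and exons, introns and untranslated regions were not assigned here because no exon annotation was used. In cortex every 1-kb window from 2 to 10 kb before the 3′ end held 9 to 15 sites. The last 2 kb of the gene held 3 sites, among them 34320315 at 6.96%, and the window from 10 to 11 kb held 2. The hippocampal sites filled a shorter stretch of 4733 nt, from 7354 to 2622 nt before the 3′ end, and the cerebellar sites lay between 5071 and 3533 nt before it. The median distance to the 3′ end was 5983 nt in cortex, 5083 nt in hippocampus and 3863.5 nt in cerebellum. None of the sites lay outside the annotated span and none within it carried another symbol. The next gene with sites downstream, Srp19, which encodes a subunit of the signal recognition particle, starts 8931 nt beyond the end of Apc.

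**Figure D2:**
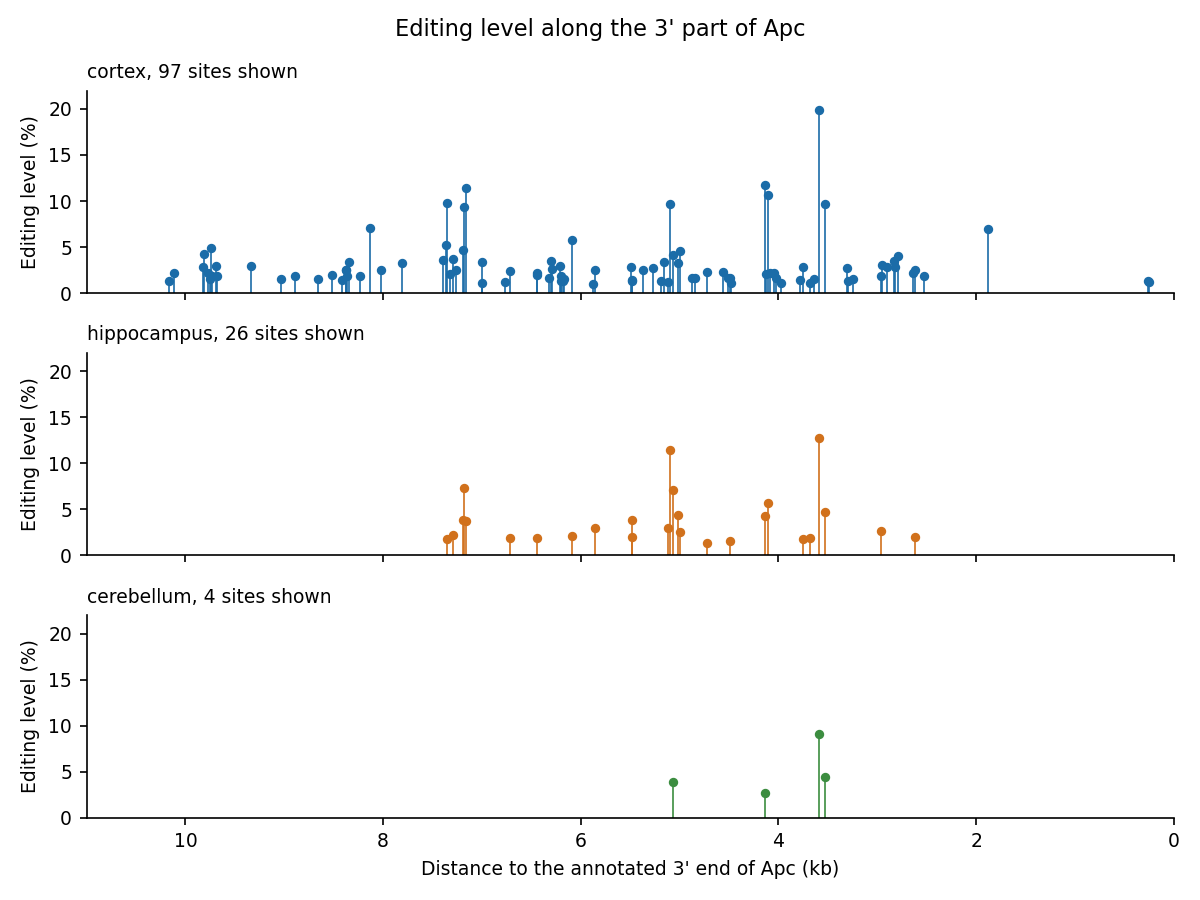
Editing level in percent (y axis) of each listed Apc site against its distance to the annotated 3′ end in kb (x axis, 5′ on the left), for cortex, hippocampus and cerebellum from top to bottom. Each stem is 1 site; 97 of 98 cortical sites fall in this stretch, the tallest at 19.88%, and the hippocampal and cerebellar stems stand at positions that also carry a cortical stem.

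In cortex the sites of Apc were spread over a long stretch rather than gathered in 1 window. A window of 5 kb held 70 of its sites, more than in any other of the 181 genes with 20 or more cortical sites (median 27). Apart from Oip5os1 with 80, no other gene had as many as 70 cortical sites in all, and Paqr8 had all 69 within 5 kb. The first place of Apc thus comes with the number of cortical sites on which it was chosen. In Apc the fullest 1-kb window held 17, which equals the median of the 181 genes. That window held 17.3% of the sites of Apc, the lowest such share among the 181 genes (median 56.25%). Among the other 7 genes with the most cortical sites, the fullest 1-kb window held 20 sites in Map1b, which encodes a microtubule-associated protein, and up to 36 in Celf4, which encodes an RNA-binding protein. Neighbouring cortical sites of Apc were a median of 40 nt apart, against 18 nt in Celf4 and 58 nt in the long noncoding RNA gene Oip5os1.

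Many cortical sites nevertheless had a near neighbour. Of the 98 cortical sites, 78 (79.6%) had another Apc site within 50 nt, against 55.1% of all cortical sites with one in their own gene. This was not particular to Apc: among the other 7 genes with the most cortical sites the share ran from 66.25% in Oip5os1 to 96.9% in Celf4. In hippocampus 12 of 26 (46.2%) did, against 54.7% of all sites there, and in cerebellum 0 of 4, against 53.3%. Such a share tends to rise with the number of sites in a gene, and the shares over all sites include genes with few. Apc was chosen on its numbers of sites, so neither its high cortical share nor the lower ones elsewhere are a separate result. Joined at gaps of up to 50 nt, the cortical sites formed 44 groups, of which 20 were single sites. The fullest group held 8 sites between 34312368 and 34312505, all at 4.9% or less and none of them listed in hippocampus or cerebellum. The next held 6 sites between 34314800 and 34314931, with a highest level of 9.77%, and 6 between 34318053 and 34318162, with a highest level of 11.7%. The hippocampal list kept at most 3 sites in a group, between 34314996 and 34315028 and between 34317072 and 34317119. Sites this close may mark the same m6A, so their number is not a number of methylated adenosines.

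Most of the cortical sites were weakly edited. The median level was 2.285% in cortex, with the middle 50% of sites between 1.59 and 3.325%, against 2.91% over all cortical sites. Among the 181 genes with 20 or more cortical sites, Apc ranked 151 by median level. Its highest site, at 19.88%, placed it 46 of 181 by highest level. Levels under 2% made up 40.8% of the Apc sites, against 28.7% of all cortical sites, and 12 sites (12.2%) reached 5%, against 23.6%. The hippocampal median was 2.815%, against 2.82% over all hippocampal sites, and 5 of 26 sites (19.2%) reached 5%, against 23.3%. The 4 cerebellar sites had a median of 4.165%, against 3.36% over all cerebellar sites. These medians run over different sites and do not rank the regions by level.

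At the level of single nucleotides the Apc lists were nested. All 26 hippocampal sites were also cortical sites, against 69.7% of hippocampal sites over all genes. The full nesting held only when sites of any level were counted. With a minimum of 2% in both lists the share of Apc sites was 77.8%, and with 5% it was 80%. The 69.7% is for no minimum, and no share over all genes at 2% or 5% is given here. All 4 cerebellar sites were listed in cortex and in hippocampus as well, against 58.2% and 49.9% of cerebellar sites over all genes. Of genes with 20 or more hippocampal sites, 8 of 145 (5.52%) had all of them in the cortical list. Of genes with 4 or more cerebellar sites, 13.4% had all of them in the cortical list and 9.5% in the hippocampal list. In the other direction 26 of the 98 cortical sites (26.5%) were listed in hippocampus, against 52.5% over all genes, and 4 (4.08%) in cerebellum, against 37.1%. Of the hippocampal sites 15.4% were listed in cerebellum, against 42.3%. Among the 181 genes with 20 or more cortical sites, Apc had the 14th lowest share also listed in hippocampus (median 66.7%) and the 30th lowest share also listed in cerebellum (median 41.5%). With 98, 26 and 4 sites listed, the Apc shares of 26.5%, 4.08% and 15.4% were the highest possible. Apc was chosen on these numbers of sites, so its low shares and ranks restate them and are no separate result. The other 7 genes with the most cortical sites shared between 55.7% (Ntrk2, the gene of the BDNF receptor TrkB) and 92.3% (Celf4) with hippocampus. With cerebellum they shared between 19.0% (Prkce, a protein kinase C gene) and 91.5% (Map1b).

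The cortical level was then set beside listing elsewhere. The 72 sites listed in cortex alone had a cortical median of 2.13%, with a range of 1.03 to 7.04%. The 22 sites listed in cortex and hippocampus had a median of 2.66% (1.13 to 11.43%), and the 4 listed in every region 10.7% (4.14 to 19.88%). The ranges overlapped, and sites at 1.13 to 1.9% in cortex were among those listed in hippocampus.

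**Figure D3:**
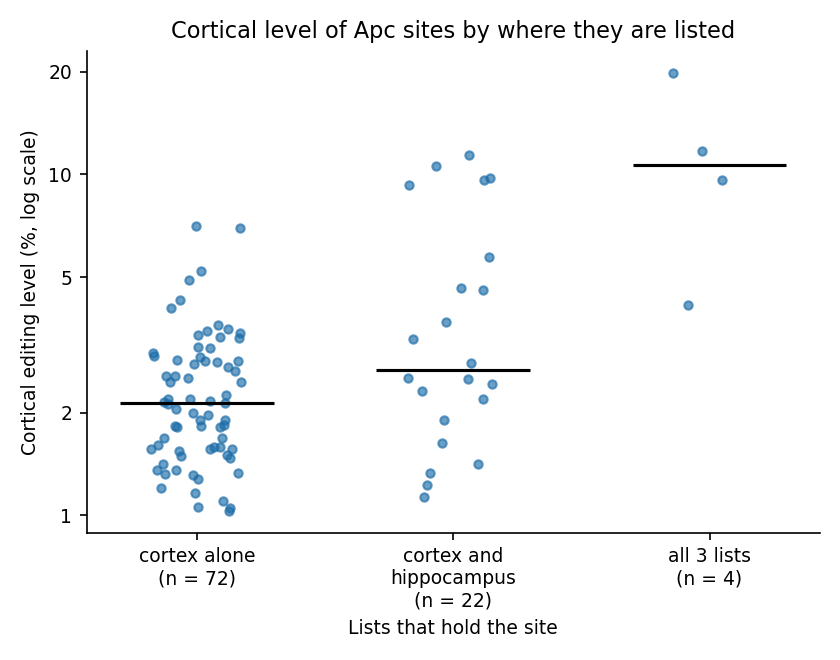
Cortical editing level in percent on a log scale (y axis) of the 98 Apc sites, split by the lists that hold the site (x axis). Each point is 1 site and each line the median, which is 2.13% for 72 sites of cortex alone, 2.66% for 22 sites of cortex and hippocampus and 10.7% for the 4 sites of every list; points are spread sideways for display.

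At the same cortical level, the share of weakly edited Apc sites that the other regions also listed was below that of all genes, a difference that was not tested. Of 40 sites at 1 to 2% in cortex, 6 (15.0%, 5.71 to 29.8%) were listed in hippocampus, against 40.6% of all cortical sites at that level. Of 46 sites at 2 to 5%, 11 (23.9%, 12.6 to 38.8%) were, against 52.3%. At 5 to 10% the share was 5 of 8 (62.5%) against 65.2%, and at 10 to 35% 4 of 4 against 75.8%. Applied to the Apc sites, the shares of all genes would give 48.6 sites in hippocampus, where 26 were listed. For cerebellum they would give 33.4 sites, where 4 were listed. There 0 of 40 sites at 1 to 2% were listed, which allows a share of up to 7.5% by the limit of 3 counts and up to 8.81% by the exact interval used for the other shares, against 25.8% of all sites; 1 of 46 was at 2 to 5%, against 36.3%, 1 of 8 at 5 to 10%, against 47.9%, and 2 of 4 at 10 to 35%, against 63.6%; no Apc site was above that range. Apc was chosen on its numbers of sites in these lists, so its low totals of 26 and 4 came with that choice. Neither the shortfalls nor the lower shares by level are a separate result. Sites of 1 gene share transcript, depth and libraries and are not independent. The depth at which each region could list a site is unknown, so a missing site is not shown to be unedited.

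**Figure D4:**
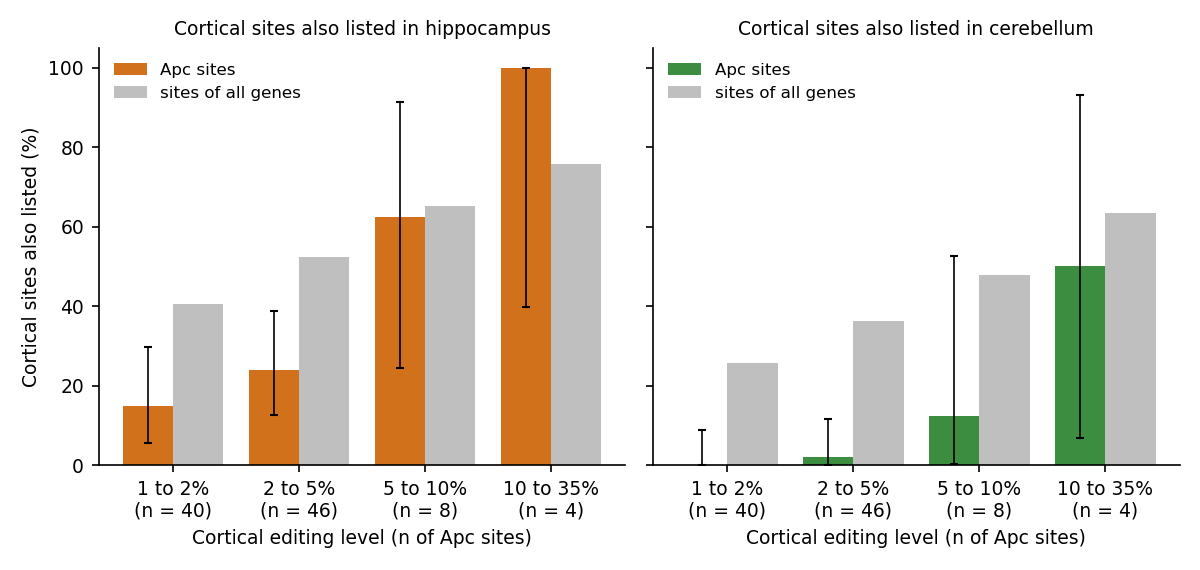
Percent of cortical sites also listed in hippocampus (left) and in cerebellum (right) on the y axis, by cortical editing level on the x axis, for Apc sites (coloured) and the sites of all genes (grey). Error bars are exact binomial 95% intervals over Apc sites. Below 5% the Apc bars stand at 15.0 and 23.9% on the left, against 40.6 and 52.3% for all genes. Apc was chosen on its numbers of sites in these lists, so its lower bars are no separate result.

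The strongest cortical sites were then set beside the stretch of hippocampal sites. Within the 4733 nt covered in hippocampus, all 9 cortical sites at 5% or more were listed in hippocampus. The other 3 cortical sites at 5% or more lay outside that stretch and were listed in cortex alone. They were 34314055 at 7.04%, 34314826 at 5.22%, which is 10 nt upstream of the first hippocampal site, and 34320315 at 6.96%. Upstream of the hippocampal stretch were 27 cortical sites with a median of 2.46%, of which 2 reached 5%. Inside it were 67 with a median of 2.31%, of which 26 were listed in hippocampus, and downstream were 4. The ends of the stretch are set by the hippocampal sites themselves, and its 5′ end by 34314836, which is 1 of the 9. Neither the full listing of the 9 inside it nor the absence of hippocampal sites beyond it is thus a separate result. Along the whole gene, 9 of 12 cortical sites at 5% or more were listed in hippocampus. Over all genes 65.2% of cortical sites at 5 to 10% were, and 75.8% at 10 to 35%.

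The 4 sites listed in every region gave the only view of all 3 levels at the same nucleotide. Position 34318600, 3590 nt before the 3′ end, had the highest level in each list, 19.88% in cortex, 12.77% in hippocampus and 9.09% in cerebellum. Position 34318657 had 9.63% in cortex, 4.67% in hippocampus and 4.41% in cerebellum. Position 34318053 had 11.7% in cortex, 4.27% in hippocampus and 2.74% in cerebellum. At these 3 positions the level was highest in cortex and lowest in cerebellum. Position 34317119 had 4.14% in cortex, 7.14% in hippocampus and 3.92% in cerebellum, so that hippocampus was highest there.

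Cortex was thus above cerebellum at 4 of 4 sites, with a median log2 ratio of 1.13 and a range of 0.08 to 2.09, against a median of -0.06 over the 6627 sites that both lists share. The ratio was at least 2-fold at 3 of these 4 sites; 12% of all shared sites were at least 2-fold higher in cortex than in cerebellum and 15.1% at least 2-fold lower. Hippocampus was also above cerebellum at 4 of 4 sites, with a median log2 ratio of 0.57 and a range of 0.08 to 0.87, against -0.04 over all 5688 shared sites. None of the 4 reached 2-fold, against 11.4% of shared sites at least 2-fold higher in hippocampus and 15.2% at least 2-fold lower. With 4 sites of 1 transcript, these counts describe the pooled lists and no more.

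Cortex and hippocampus shared 26 Apc sites. The level was higher in cortex at 17 (65.4%), against 51.2% of the 9379 sites that these lists share over all genes. The median over the 26 sites was 3.49% in cortex and 2.815% in hippocampus. The median log2 ratio of cortex to hippocampus was 0.34, within a range of -1.54 to 2.44, against 0.02 over all shared sites. Among 87 genes with 20 or more sites shared by these lists, whose medians ran from -0.38 to 0.58, Apc ranked 11. Cortex was at least 2-fold higher at 5 sites; over all genes 8.17% of shared sites were at least 2-fold higher in cortex and 7.37% at least 2-fold lower, which 2 Apc sites were. Spearman's rho across the 26 sites was 0.54, against 0.71 across all shared sites; the points share libraries, and those of Apc share a transcript.

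The 5 sites at least 2-fold higher in cortex were among the most edited cortical sites. This is partly built in: no hippocampal Apc site was below 1.34%, so such a site could not be among the weakest in cortex. Position 34314836 had 9.77% in cortex and 1.8% in hippocampus, the widest gap in this direction. Position 34315028 had 11.43% in cortex and 3.77% in hippocampus, while its neighbour 34315010, 18 nt upstream, had 9.33% in cortex and 7.37% in hippocampus. Position 34316097 had 5.74% in cortex and 2.08% in hippocampus. The other 2, 34318053 and 34318657, are among the sites of every region given above. In the opposite direction, 34316708 had 1.33% in cortex and 3.88% in hippocampus, and 34317072 had 1.23% in cortex and 3.01% in hippocampus. The strong site 34317095 had 9.64% in cortex and 11.41% in hippocampus, and the strong site 34318086 had 10.6% in cortex and 5.71% in hippocampus. The smallest difference was at 34317703, with 1.63% in cortex and 1.6% in hippocampus.

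The direction of the difference changed along the transcript. The 8 shared sites farthest from the 3′ end, at 7354 to 6093 nt, were all higher in cortex, with a median of 5.195% in cortex and 2.15% in hippocampus. The next 7, at 5856 to 5012 nt, were all lower in cortex, with a median of 2.51% in cortex and 3.88% in hippocampus. Of the last 11, at 4997 to 2622 nt, 9 were higher in cortex, with a median of 2.8% in cortex and 2.55% in hippocampus. The exceptions were 34318512 with 1.13% in cortex and 1.91% in hippocampus, and 34319232 with 1.9% in cortex and 2.63% in hippocampus. These 3 blocks were drawn after the values had been seen and along their changes of sign, so the uniform direction of the first 2 is by construction; the number of such runs was not tested.

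**Figure D5:**
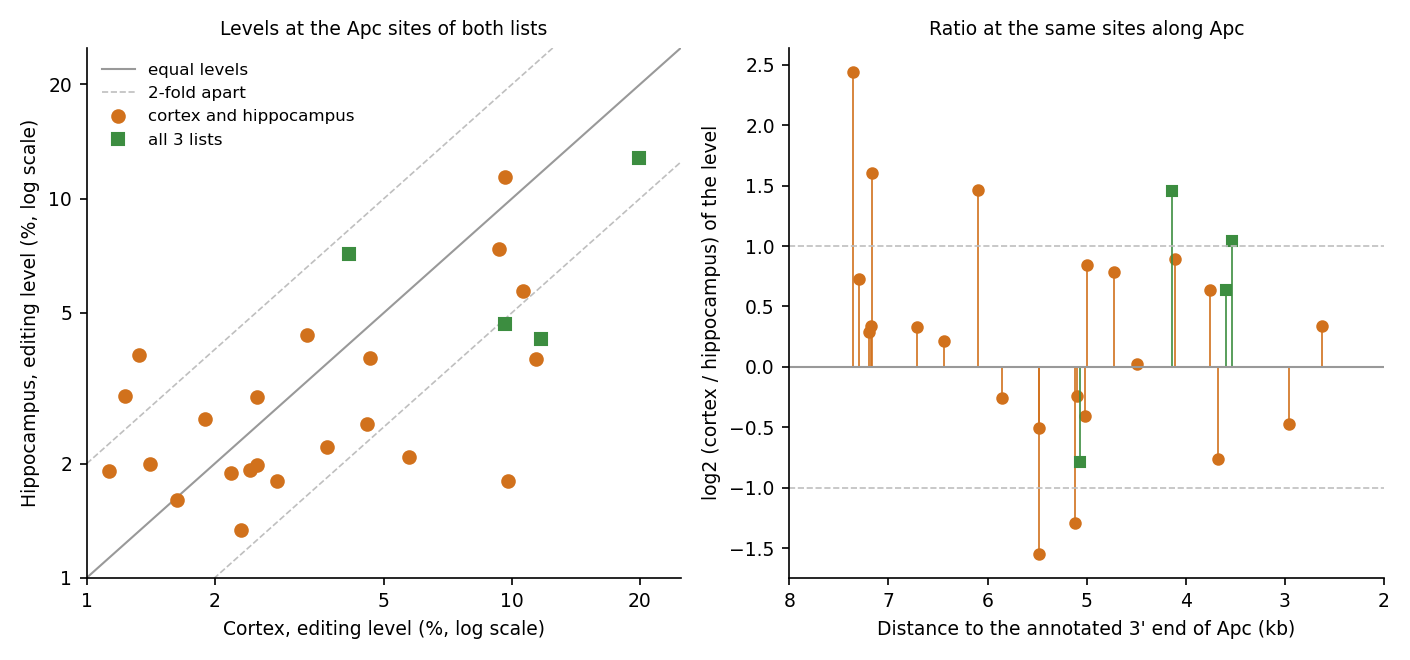
Left, editing level in hippocampus (y axis, percent, log scale) against cortex (x axis, percent, log scale) at the 26 Apc sites of both lists, with squares for the 4 sites also listed in cerebellum. Right, log2 ratio of cortex to hippocampus (y axis) at the same sites against the distance to the 3′ end in kb (x axis, 5′ on the left); the 7 sites from 5856 to 5012 nt lie below 0 and the 8 sites upstream of them above it.

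Other genes of the Wnt pathway and partners of the APC protein were counted in the same lists. Of 111 such genes, Apc not counted, 38 (34.2%) had a site in any list, against 16.6% of 21900 protein-coding genes in the RefSeq table. Those 21900 were not limited to genes expressed in brain, and the pathway lists were chosen with earlier results of these data known. The difference was not tested and is not read as an enrichment. Of the 38, 35 had one in cortex (92.1%), 30 in hippocampus (78.9%) and 18 in cerebellum (47.4%). Over all 3731 genes with a site these shares were 84.8%, 68.3% and 59.7% in the same order. The 38 genes had a median of 2 cortical, 1 hippocampal and 0 cerebellar sites, against 2, 1 and 1 over all genes. Apc had the most cortical sites of all genes, so none of the 38 could have more there. In hippocampus 2 of them had more sites than Apc, and in cerebellum 8.

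In the destruction complex and its regulators, 11 of 19 genes had a site: all 11 were listed for cortex, 9 for hippocampus and 6 for cerebellum. Ppp2ca, the catalytic subunit of protein phosphatase 2A, had 28 cortical, 28 hippocampal and 22 cerebellar sites. Csnk1a1, a casein kinase that phosphorylates β-catenin, had 12, 15 and 13 in that order. Fbxw11, an F-box protein that recognises phosphorylated β-catenin, had 7, 7 and 1, and Ctnnb1, which encodes β-catenin, had 5, 5 and 4. Apc2, the paralog of Apc, was looked up after the values had been seen and had 5 cortical, 2 hippocampal and 0 cerebellar sites, with a median level of 3.92% in cortex. Over the 11 listed genes of this group, 5 had more sites in cortex than in hippocampus and 1 had fewer. Over all 3731 genes with a site, 2070 had more in cortex and 751 had fewer, so no lean of the group to cortex is read from this. The 4 named first are those with the most sites and do not stand for the group.

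At the start of the pathway, 5 of 36 ligands, receptors and transducers had a site, all 5 of them in cortex, 2 also in hippocampus and 1 also in cerebellum. The ligand gene Wnt7b had 2 cortical and 6 hippocampal sites and none in cerebellum. The co-receptor gene Lrp6 had 2 sites in cortex, up to 48.6%, and 1 in cerebellum at 55.0%. These levels lie far above the medians over all sites, 2.91% in cortex and 3.36% in cerebellum. The lists hold no depth and no APOBEC1-YTHmut value with which to check them. Lrp4, a receptor of the same family as Lrp6, had 1 site each in cortex and hippocampus, and the receptor gene Fzd3 had 1 in cortex. Of 17 antagonists, Dkk3 had 4 cortical and 5 hippocampal sites and Frzb, a secreted Wnt-binding protein, 1 hippocampal site. Of 17 genes of β-catenin-dependent transcription, 6 had a site: 4 were listed for cortex, 5 for hippocampus and 1 for cerebellum. The co-repressor gene Ctbp1 led them with 1, 3 and 1 sites, and the acetyltransferase gene Ep300, the co-repressor gene Tle4 and the co-activator gene Bcl9 had 1 in cortex each, the first 2 of these also 1 in hippocampus.

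Among partners of APC at microtubules, actin and membrane scaffolds, 14 of 22 had a site: all 14 were listed for cortex, 12 for hippocampus and 10 for cerebellum. Map1b had 59 cortical, 55 hippocampal and 72 cerebellar sites. Arhgef4, an exchange factor that APC activates, had 13, 19 and 8. Dst, a giant linker of the cytoskeleton, had 11, 7 and 16, and Kifap3, the kinesin-2 subunit through which APC is carried, had 7, 9 and 8. These 4 are the partners with the most sites. The 14 listed partners had a median of 3.5 cortical, 1.5 hippocampal and 3.5 cerebellar sites, against 98, 26 and 4 in Apc. Over all genes with a site the medians were 2, 1 and 1.

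The genes whose listings were divided between the regions most like those of Apc were found among 621 genes with 20 or more listings, by the Euclidean distance between the shares of listings in the 3 lists. Apc had 76.6% of its listings in cortex, 20.3% in hippocampus and 3.125% in cerebellum. Pou6f1, a POU-domain transcription factor gene, was nearest at a distance of 0.039, with 51 cortical, 16 hippocampal and 2 cerebellar sites. Nol4 had 20, 6 and 0, Lrrc4, which encodes a synaptic adhesion protein, 29, 6 and 1, and Pcnx 15, 5 and 0. Cdk19, a kinase of the Mediator complex, had 17, 4 and 2, and the predicted gene Gm10419 had 28, 10 and 0. The distances of these 6 genes were 0.039 to 0.074, against a median of 0.48 over the 621.

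Sharing and levels within these genes were then set beside those of Apc. All 26 hippocampal sites of Apc were cortical sites, while 14 of 16 were in Pou6f1, 7 of 10 in Gm10419 and 2 of 4 in Cdk19. In Lrrc4 all 6 were, in Pcnx all 5 and in Nol4 5 of 6, against 69.7% of hippocampal sites over all genes. The cortical median level was 2.285% in Apc and ran from 2.33% in Pou6f1 to 4.62% in Cdk19. At sites that both lists share, cortex was higher at 17 of 26 in Apc, at 5 of 14 in Pou6f1 and at 4 of 6 in Lrrc4. It was higher at 3 of 5 in Nol4, 2 of 5 in Pcnx, 1 of 2 in Cdk19 and 4 of 7 in Gm10419. Over all genes the share was 51.2%. These profiles rest on 3 values per gene, and a like division says nothing of a like cause.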

How the data were processed

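Directional poly(A) libraries were made from 900 ng of total RNA each, per the labels' protocols, and aligned with STAR 2.7.5 to mm10, per the submitters' processing notes. How sites were called, at what depth, and how libraries were pooled is not given in the sources used here. The authors deposited 1 headerless list of 6 columns per region, whose value is a fraction, printed here as percent; that it is the share of edited reads in the pooled APOBEC1-YTH libraries is an assumption. Positions are 1-based. In RefSeq promoter windows (GRCm38.p6), 29 of 29 listed positions were a cytidine after an adenosine, the order of the m6A consensus.

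Sites were identical when chromosome, position and strand matched. Named genes were all Apc rows, up to 4 members of each pathway list with the most sites, the 8 genes with the most cortical sites and the 6 nearest in shares of listings. Members and lists were chosen with earlier results of these data known. No test was run, since each region has 1 pooled list. Counting routines were tested on simulated data. Alternatives were level minimums, merging, sharing distance, scaling, pseudocount and cluster distance. The software was scipy 1.17.1, pandas 2.3.3, numpy 2.4.6 and matplotlib 3.10.9 under Python 3.11.15.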

Additional observations from a re-analysis of the deposited data

How the results depend on the processing

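No paired analysis was possible because each region has 1 pooled list with no value per animal, and no replicate could be left out for the same reason. Of 129 recomputed values, 107 stayed within 1.5 times (counts) or within the 95% binomial interval of the value reported, and 22 did not. For medians over the 4 cerebellar sites, the lowest and highest value took the place of that interval. With so few sites, a cerebellar median or share could hardly move beyond its limits. A turn in direction was looked for only in log2 ratios of at least 1 in size, and 0 turned. With a level of at least 2%, Apc had 58 cortical sites at a median of 3.04%, 77.8% of its hippocampal sites were also in the cortical list, and hippocampal groups numbered 11. With at least 5%, there were 12 cortical, 5 hippocampal and 1 cerebellar site, log2 ratios of 1.12 for cortex over hippocampus and 2.7 for cortex over cerebellum, and 80% of hippocampal sites in the cortical list. Median levels were then 9.635% in cortex and 7.37% in hippocampus, the reverse of their order with no minimum (2.285% and 2.815%). Groups numbered 9, 4 and 1 in cortex, hippocampus and cerebellum, and pathway and partner genes with a site 15, 8 and 9. For these genes hippocampus and cerebellum changed order, from 30 and 18 with no minimum. A level minimum removes weak sites from every list by construction, so the full nesting of the hippocampal list holds only when sites of any level are counted. Sharing within 50 nt put 43.9% of cortical sites in hippocampus, joining at 10 nt gave 82 cortical groups, and 2 or more sites per gene left 23 pathway and partner genes in cortex and 16 in hippocampus. Leaving out sites at 35% or more, merging within 10 nt, a pseudocount of 0.5 and scaling by the lists moved no value beyond these limits. Depth, unknown here, limits which weak sites could be listed.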
